A study of Mus musculus with 6 samples.

Results

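Mesenchymal identity genes were followed in *Pdx1-Cre*-labelled cells of the mouse embryo as a set of 10 genes: the transcription factors *Twist1*, *Prrx1*, *Nkx3-2*, *Barx1* and *Meox1*, the receptors *Pdgfra* and *Pdgfrb*, the matrix genes *Postn* and *Tnc*, and the filament gene *Vim*. They were found by matching the Ensembl identifiers of the count table to gene symbols, and all 10 were among the 55414 genes listed. Of these, 7 had enough counts to be tested between genotypes. *Twist1*, *Nkx3-2* and *Barx1* did not pass the filter on low counts and are described by their counts only.

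Messenger RNA was sequenced from cells sorted by tdTomato from the trunk of E10.5 embryos, in 3 WT libraries (labelled Pdx1-Cre+, Tdtomato+, miR-302WT) and 3 KO libraries (labelled Pdx1-Cre+, Tdtomato+, miR-302KO). Both groups carried the *Pdx1-Cre* transgene and the tdTomato reporter, and the study asked how the transcriptome of pancreatic progenitors changes without *mir-302*. The embryos came from crosses of *mir-302* heterozygous parents, so the KO allele was not limited to the labelled cells, and *Pdx1-Cre* is known to mark epithelium of the nearby stomach and duodenum beside that of the pancreas. Whether a library came from 1 embryo or from several is not given in the sources used here, so p-values measure the spread between these libraries, which may in part be technical.

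The mesenchyme is the loose tissue that wraps the gut epithelium and the early pancreatic buds, and its growth signals are needed for the buds to expand. Its cells are held in a mesenchymal state by transcription factors such as TWIST1 and PRRX1, they receive PDGF ligands made by the neighbouring epithelium, and they lay down a matrix of collagens, fibronectin, tenascin and periostin. They do not descend from the *Pdx1*-expressing endoderm, so these genes are not markers of the labelled lineage.

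Total counts ran from 17352498 to 26634523 per library. The label of the cells was checked against epithelial and pancreatic markers. The summed level of 12 epithelial genes lay between 4810 and 5670 CPM (read counts scaled to a common library size, here after TMM normalisation) and that of 12 pancreatic progenitor genes between 1050 and 1330 CPM. Some libraries stood apart. Erythroid genes summed to 16300 CPM in WT replicate 3, 6580 CPM in KO replicate 1 and 345 CPM in KO replicate 3, and to at most 3.74 CPM in the others. WT replicate 2 and KO replicate 1 share the start of their library names in the labels, which do not say what it marks. KO replicate 2 stood apart by low mesenchymal transcripts, as described below.

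The members were searched for sites that pair with the seed AAGUGCU, shown in capitals as bases 2 to 8 of miR-302b-3p and miR-302d-3p. The sequences are from RefSeq on GRCm38.p6, plus strand. The entry for miR-302c-3p holds the same letters but starts 1 base later, so that they are its bases 1 to 7, and it is not printed.
miR-302b-3p: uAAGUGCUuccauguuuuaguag
miR-302d-3p: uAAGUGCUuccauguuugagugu

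A site was counted where the sense strand of an annotated 3′UTR (GENCODE M21, a GRCm38 annotation) held AGCACTT or GCACTTA, and a run of both, AGCACTTA, was counted as 1 site. *Vim* held a site in both of its 2 complete coding transcripts, and *Prrx1* in 2 of its 3, but not in the transcript with its longest 3′UTR of 4891 bases. The other 8 members held 0 sites. The windows of 30 bases around each site are printed with the letters that match in capitals, because no other member's 3′UTR held these letters.
Vim, 3′UTR bases 168 to 175 of 342: gaaagaagctcAGCACTTAacaactgacac
Prrx1, 3′UTR bases 1649 to 1655 of 3139: ctggtttgtccAGCACTTtgtagccgtgaa
Among all 21024 genes with an annotated 3′UTR, 17.7% held a site in the longest one, and among the 1912 genes whose 3′UTR is 0.8 to 1.25 times as long as that of *Vim*, 4.45% did. For the length of the longest *Prrx1* 3′UTR the share was 51.8% of 1109 genes. A match is a description of letters and not evidence of pairing.

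None of the tested mesenchymal identity genes passed the test between genotypes. By edgeR's quasi-likelihood test over the 16353 genes tested, 0 of the 7 tested members had an adjusted p under 0.05, where the share over all genes was 0%. An unadjusted p under 0.05 was reached by 0 of the 7 and by 10.4% of all genes (6.42% higher and 3.97% lower in KO). DESeq2 called 0 of the 7, against 4.87% of the genes to which it gave an adjusted p (4.22% higher and 0.648% lower in KO). In 0 of the 7 were all KO libraries on the same side of all WT libraries, against 16.4% of all genes (8.36% with KO above and 7.99% with KO below WT). The median log2 fold change of the 7 was 0.19, beside -0.02 for all tested genes, and 5 of them had a positive estimate. The number with a positive estimate rested on single libraries, being 2 without KO replicate 3 and 3 without WT replicate 2 or without KO replicate 1. The intervals were wide, above all for *Prrx1*, *Pdgfra*, *Postn* and *Tnc*. For every tested member but *Vim*, the SD of log2 levels between libraries of the same genotype was larger than the estimated difference between genotypes.

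**Figure D1:**
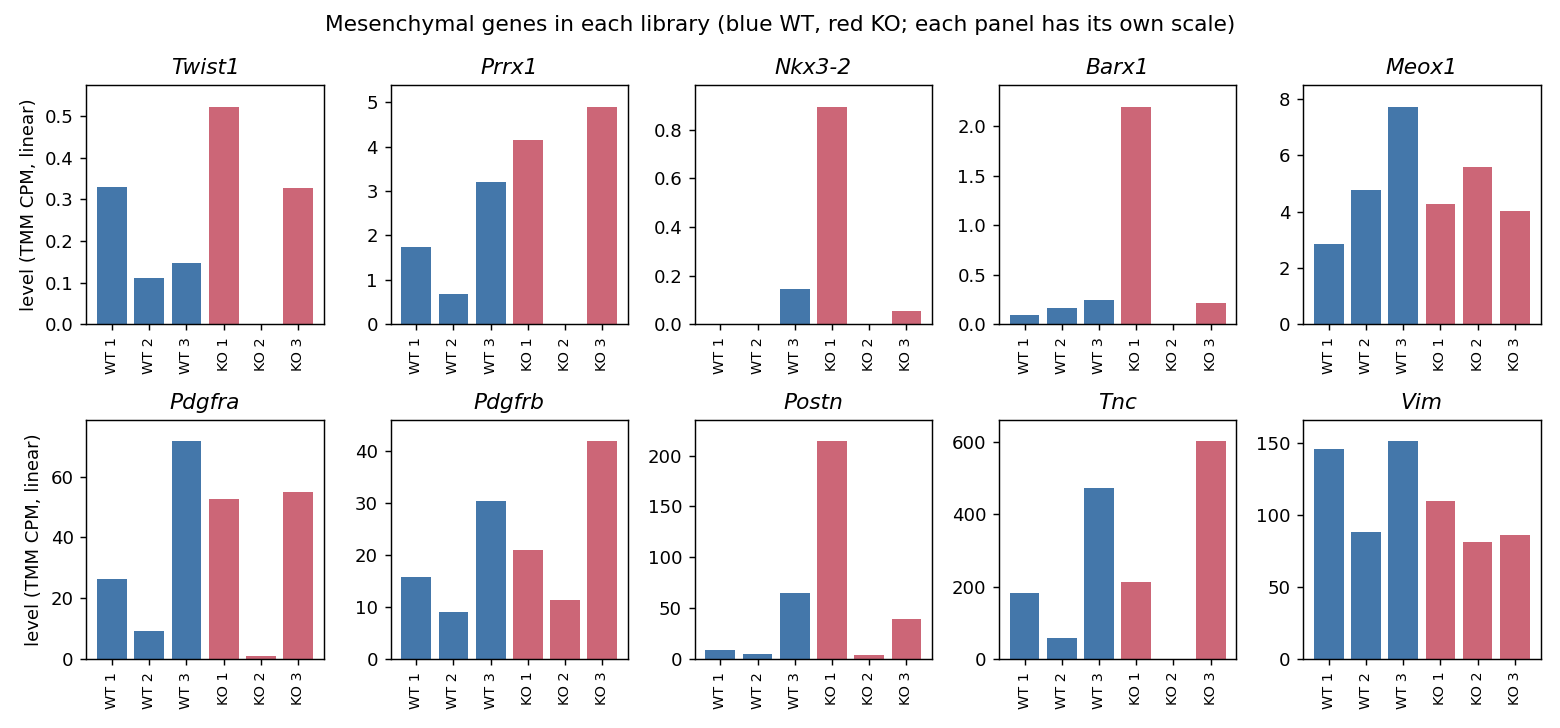
Level of each mesenchymal identity gene (y axis, TMM CPM on a linear scale that differs between panels) in the 3 WT libraries (blue) and 3 KO libraries (red); each bar is 1 library. KO 2 is the lowest library for *Prrx1*, *Pdgfra*, *Postn*, *Tnc* and *Vim*, but not for *Meox1* or *Pdgfrb*. For *Twist1* and *Barx1*, with 0 counts in KO 2, the lowest library cannot be told. KO 1 is high for *Nkx3-2*, *Barx1* and *Postn*.

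Among the transcription factors, *Twist1* (ENSMUSG00000035799.7), a basic helix-loop-helix factor of mesoderm and neural crest, was close to the limit of detection. It had 7, 2 and 3 counts in WT replicates 1, 2 and 3 and 14, 0 and 6 counts in KO replicates 1, 2 and 3. The genotypes overlapped. A count of 0 in KO replicate 2 allows up to 3 counts, or 0.171 CPM, which lies above the 0.112 and 0.146 CPM of WT replicates 2 and 3, so a lower level there was not detectable at this depth. This and the other floors cover counting error only.

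*Prrx1* (ENSMUSG00000026586.17), a homeobox factor of limb and body wall mesenchyme, gave 1.74, 0.67 and 3.20 CPM for WT replicates 1 to 3, beside 4.14, 0 and 4.90 CPM for the KO replicates. KO replicates 1 and 3 were the 2 highest of the 6 libraries and KO replicate 2 was the lowest. Its highest library was at least 28.7-fold above the floor of 3 counts in KO replicate 2. The log2 fold change was 0.69 (standard error 1.15, 95% interval -2.02 to 3.39, adjusted p = 0.923 by edgeR), and without KO replicate 2 it was 1.27 (adjusted p = 0.459).

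*Barx1* and *Nkx3-2* mark regional mesenchyme of the gut, the first in the stomach and the second in the stomach and spleen as well as in the axial skeleton. *Barx1* (ENSMUSG00000021381.5) had 2, 3 and 5 counts in the WT libraries and 59, 0 and 4 counts in KO replicates 1, 2 and 3. *Nkx3-2* (ENSMUSG00000049691.9) had 0, 0 and 3 counts in the WT libraries and 24, 0 and 1 in the KO libraries. For both, KO replicate 1 stood above all other libraries and the other 2 KO libraries lay within the WT range or at 0. Levels in KO replicate 1 were 2.20 CPM for *Barx1* and 0.894 CPM for *Nkx3-2*.

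Other regional mesoderm genes, named after their values were seen, were high in the same library. *Foxf1*, a forkhead factor of the splanchnic mesoderm, was at 35.3 CPM in KO replicate 1 and at 0.189 to 1.84 CPM in the other 5 libraries. *Foxf2*, its close relative, had 85 counts there, 4 in WT replicate 3 and 0 in the other 4. *Tlx1*, needed for the spleen, had 40 counts in KO replicate 1 and 0 in all others. Without the filter on low counts, edgeR gave *Barx1* a log2 fold change of 2.28 and *Nkx3-2* one of 2.61 (adjusted p = 0.788 for both), values that rest on KO replicate 1.

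*Meox1* (ENSMUSG00000001493.10), a homeobox factor of the somites, followed another order. WT replicates 1 to 3 held 2.83, 4.75 and 7.72 CPM, and the KO replicates 4.25, 5.58 and 4.03 CPM. KO replicate 2, the lowest library for most tested members, was the second highest for *Meox1*. The log2 fold change was -0.14 (standard error 0.377, 95% interval -1.03 to 0.74, adjusted p = 0.95 by edgeR). Without WT replicate 3 it was 0.32 (adjusted p = 0.948).

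The receptors differed in how low they were in KO replicate 2. *Pdgfra* (ENSMUSG00000029231.16) encodes the receptor for PDGF-A and PDGF-C and is a general marker of embryonic mesenchyme. Its level by replicate was 26.3, 9.22 and 71.6 CPM for WT, then 52.7, 0.912 and 54.9 CPM for KO. The highest and the lowest library differed 78.6-fold, while the genotype means were 35.7 ± 32.2 and 36.2 ± 30.6 CPM (SD, n = 3 each). The log2 fold change was 0.02 (95% interval -2.69 to 2.73, adjusted p = 0.998 by edgeR). On leaving out single libraries it lay between -0.42 and 1.07.

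*Pdgfrb* (ENSMUSG00000024620.12), the PDGF-B receptor of pericytes and other stromal cells, spanned a narrower range. WT replicates 1 to 3 held 15.8, 9.11 and 30.4 CPM, and the KO replicates 20.9, 11.3 and 41.8 CPM. Its lowest library was WT replicate 2, its highest was KO replicate 3, and these differed 4.6-fold. The log2 fold change was 0.42 (standard error 0.557, 95% interval -0.89 to 1.73, adjusted p = 0.892 by edgeR). It was -0.16 without KO replicate 3 and 1.02 without WT replicate 3.

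The ligands for these receptors were more even. All 4 PDGF ligand genes were tested, 0 had an unadjusted p under 0.05, and their median log2 fold change was 0.16. The means of *Pdgfc* were 54.4 ± 5.71 (WT) and 69.0 ± 19.2 CPM (KO). *Pdgfa* had means of 9.78 ± 0.742 and 12.2 ± 1.62 CPM, with all KO libraries above all WT libraries (log2 fold change 0.31, adjusted p = 0.611 by edgeR; n = 3 libraries per genotype).

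*Tnc* (ENSMUSG00000028364.16), which encodes the adhesion-modulating matrix protein tenascin C, had the widest range of the tested members. WT replicates 1 to 3 held 183, 59.2 and 472 CPM, while the KO replicates held 213, 0.969 and 601 CPM. KO replicates 2 and 3, of the same genotype, were the lowest and the highest of all 6 and differed 620-fold (17 and 11038 counts). The WT mean was 238 ± 212 CPM and the KO mean 272 ± 304 CPM (SD, n = 3 each). The log2 fold change was 0.19 (standard error 1.44, 95% interval -3.19 to 3.57, adjusted p = 0.984 by edgeR). It was -1.11 without KO replicate 3 and 0.77 without KO replicate 2.

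*Postn* (ENSMUSG00000027750.17) encodes periostin, a matrix protein of connective tissue. Its WT replicates 1 to 3 held 9.05, 4.47 and 64.9 CPM, against 214, 3.53 and 39.2 CPM for the KO replicates. KO replicate 1 alone lay above the highest WT library. The log2 fold change of 1.71 was the largest of the 7, with a standard error of 1.39 and a 95% interval from -1.54 to 4.97 (adjusted p = 0.782 by edgeR). It was -0.30 without KO replicate 1 and 3.70 without WT replicate 3, so its size and its sign rested on single libraries.

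*Vim* (ENSMUSG00000026728.10), the intermediate filament gene of mesenchymal cells that many embryonic epithelia also express, was the most even member. WT replicates 1 to 3 held 146, 88.4 and 151 CPM, and the KO replicates 110, 81.1 and 86.3 CPM. The KO libraries were low, but KO replicate 1 lay above WT replicate 2, so the genotypes overlapped. The means were 129 ± 34.9 and 92.5 ± 15.4 CPM (SD, n = 3 each), with a log2 fold change of -0.48 (standard error 0.216, 95% interval -0.98 to 0.03). *Vim* had the smallest p of the members (unadjusted p = 0.062, adjusted p = 0.512 by edgeR's quasi-likelihood test), and its estimate stayed negative on leaving out single libraries, from -0.66 to -0.31. The smallest p of these fits was without WT replicate 2 (unadjusted p = 0.00377, adjusted p = 0.127 by edgeR).

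**Figure D2:**
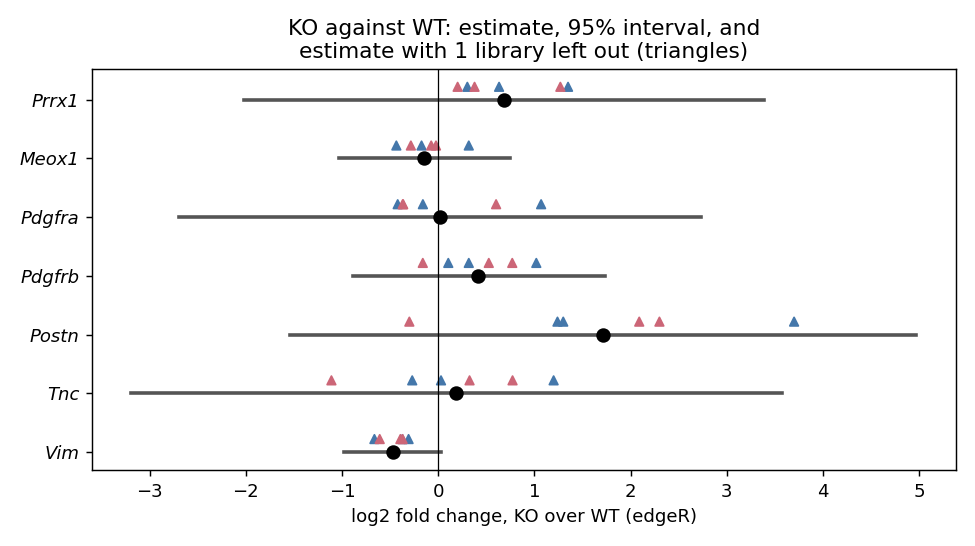
Log2 fold change of KO over WT (x axis) for the 7 tested mesenchymal identity genes (y axis): dots are edgeR estimates from all 6 libraries, lines their 95% intervals, and triangles the estimates with 1 WT (blue) or 1 KO (red) library left out. Each interval includes 0, *Postn* moves between -0.30 and 3.70, and *Vim* stays below 0.

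Levels between genes were compared per kilobase of annotated exons. By mean level over the 6 libraries, *Tnc* (32.8 CPM per kilobase) and *Vim* (23.3) were the highest, followed by *Postn* (6.43), *Pdgfrb* (3.93), *Pdgfra* (3.59) and *Meox1* (2.18). *Barx1*, *Prrx1*, *Twist1* and *Nkx3-2* were at 0.348, 0.221, 0.147 and 0.106 CPM per kilobase. Given the range of each gene between libraries, *Tnc* and *Vim* changed places within single libraries, and no order among the 4 lowest could be told.

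The spread between libraries of the same genotype was measured as the SD of log2 levels (0.5 counts added), pooled over WT and KO. Its median was 0.235 over all tested genes and 0.173 over the 11402 genes at a mean of at least 5 CPM. It was 3.66 for *Tnc*, 3.09 for *Prrx1*, 2.60 for *Pdgfra* and 2.53 for *Postn*, each larger than in at least 99% of tested genes (99.8%, 99.6%, 99.2% and 99.1%). The value for *Prrx1* rests in part on the 0.5 counts added, since it had 0 counts in KO replicate 2. *Pdgfrb* (0.908), *Meox1* (0.54) and *Vim* (0.348) were larger than 91.7%, 80.0% and 65.7%.

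**Figure D3:**
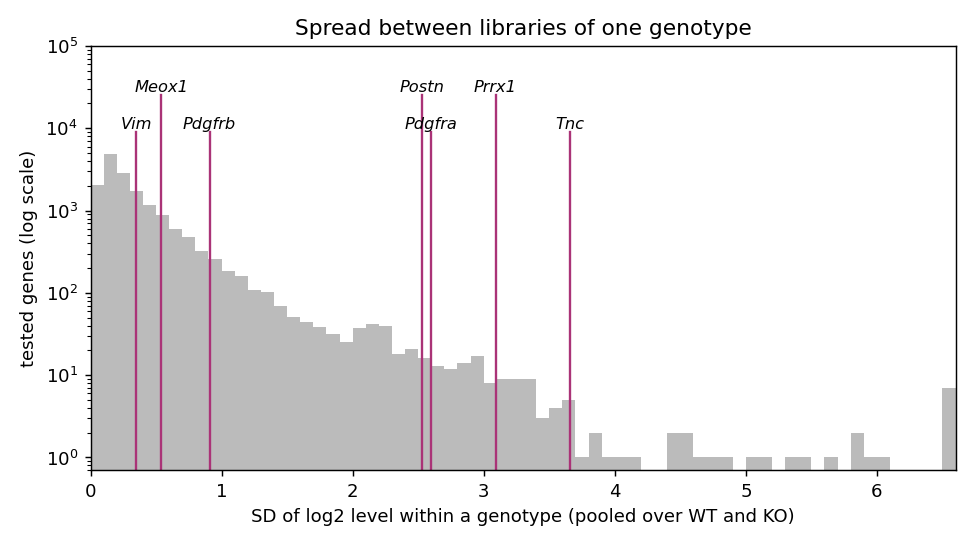
Number of tested genes (y axis, log scale) by the SD of the log2 level between libraries of the same genotype (x axis, bins of 0.1, the last holding all larger values), with the 7 tested mesenchymal identity genes as lines. *Vim*, *Meox1* and *Pdgfrb* lie below 1 and *Postn*, *Pdgfra*, *Prrx1* and *Tnc* above 2.5.

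KO replicate 2 was the single lowest library for 7 of the 10 members. Of these, *Pdgfra*, *Postn*, *Tnc* and *Vim* had a mean of at least 5 CPM, as did *Pdgfrb*, which was lowest in WT replicate 2. *Twist1*, *Prrx1* and *Barx1* had lower means. *Twist1* and *Barx1* had 0 counts in KO replicate 2, where the floor of 0.171 CPM lies above some other libraries, so their lowest library could not be told. KO replicate 2 was the lowest for 21.8% of all genes at a mean of at least 5 CPM. Set against the median of the other 5 libraries (0.1 CPM added to each), its *Tnc* level was lower by 7.64 on the log2 scale, and 0.0877% of those genes lay lower still. *Pdgfra* was lower by 5.71 and *Postn* by 3.43. *Pdgfrb* was lower by 0.884 and *Vim* by 0.44, and 3.5% and 9.44% of those genes lay lower still. *Meox1* was higher by 0.39, and 89.3% of those genes lay lower.

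Genes lost from KO replicate 2 were counted in the same way in each library. At most 3 counts in KO replicate 2 and at least 1 CPM in each other library were found for 49 genes, of which 0 were members. For WT replicates 1 and 2 the same count was 4 and 2 genes, and for each of the other 3 libraries it was 0. The 49 included *Col3a1* and *Col1a1*, the fibrillar collagens, which had 0 counts in KO replicate 2 and at least 62.1 and 34.7 CPM in every other library. They also included *Lum*, *Hand1*, *Msx1*, *Tbx18*, *Tbx5* and *Wnt2*, genes of mesenchyme or mesoderm, and *Upk3b* and *Upk1b*, markers of the mesothelium that covers the gut. Genes of other cell types were among them too, such as *Serpinc1*, *Hc* and *C8a*, plasma protein genes of the liver, and *Flt1*, *Tek* and *Aplnr*, receptors of endothelial cells, and 8 of the 49 were on the stromal, mesoderm, smooth muscle and mesothelium lists. These genes were chosen after their values were seen. In bulk libraries, fewer cells of a type and less RNA per cell cannot be told apart.

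Lists of marker genes were followed over the libraries beside the members. The summed level of the 10 members was 386, 176 and 802 CPM in WT and 623, 103 and 832 CPM in KO. *Tnc* was the largest part of it in WT replicates 1 and 3 and KO replicate 3, *Vim* in WT replicate 2 and KO replicate 2, and *Postn* and *Tnc* were about equal in KO replicate 1. Of 22 stromal matrix and surface genes, 19 had their single lowest level in KO replicate 2, and the sum there was 1180 CPM against 2070 to 3540 CPM elsewhere. The list was not lost as a whole. *Fn1*, the fibronectin gene, was at 376 CPM and *Fstl1* at 293 CPM in KO replicate 2, and *Col1a2* at 34.9 CPM, beside *Col1a1* at 0. By edgeR, 0 of the 21 tested genes of this list had an unadjusted p under 0.05, and their median log2 fold change was -0.04.

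Smooth muscle and pericyte genes summed to 32.8 CPM in KO replicate 2 and to 92.1 to 212 CPM elsewhere. The genes of this list with the highest CPM, not divided by length, were *Notch3*, a receptor of mural cells, at 23.1 CPM in KO replicate 2 and 35.5 to 56.9 CPM elsewhere, and *Myl9*, a myosin light chain, which stood at 6.67 CPM in KO replicate 2 and 26.9 CPM or more elsewhere. *Acta2*, smooth muscle actin, which exceeded *Notch3* per kilobase and was named after its values were seen, was at 1.08 CPM in KO replicate 2 and 3.35 to 89.6 CPM elsewhere. Mesothelial genes summed to 14.2 CPM in KO replicate 2 and 42.0 to 153 CPM elsewhere, with *Upk3b* at 3 counts and *Lrrn4* at 1.25 CPM against at least 12.5 CPM. *Msln*, named after its values were seen, went the other way, with 12.8 CPM in KO replicate 2, most of the sum there, and 4.01 to 11.1 CPM elsewhere. By edgeR, 0 of 6 tested smooth muscle genes and 0 of 5 mesothelial genes were called, with 1 lower and 1 higher gene at an unadjusted p under 0.05.

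**Figure D4:**
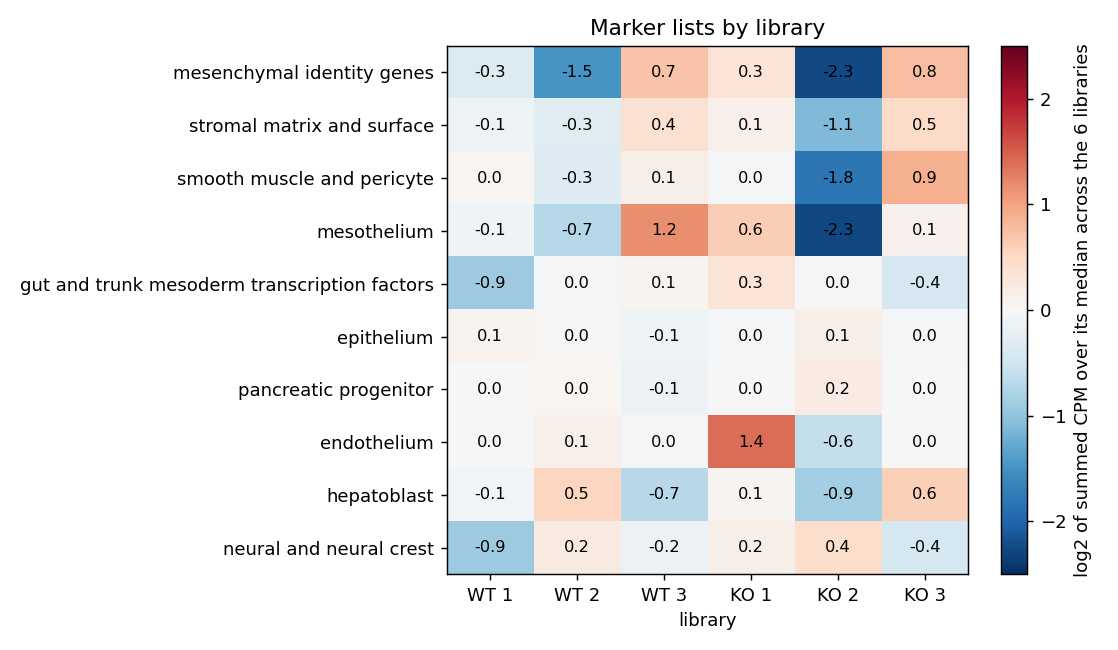
Summed TMM CPM of each marker list (rows) in each library (columns), as log2 of its ratio to the median of the 6 libraries, from blue (lower) to red (higher). The mesenchymal identity genes and mesothelial genes are lowest in KO 2 (103 and 14.2 CPM), the epithelial list spans only 4810 to 5670 CPM, and endothelial genes are high in KO 1 (53.3 CPM).

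Epithelial and pancreatic lists did not share this pattern. KO replicate 2 had the highest sum of both, 5670 and 1330 CPM, and 0 genes of either list were lowest there. By edgeR, 3 of 12 epithelial genes (2 higher, 1 lower) and 3 of 12 pancreatic genes (all higher) had an unadjusted p under 0.05, and 0 were called. With the filter on low counts, the genes called in these lists were called by DESeq2 and not by edgeR; without it, edgeR called *Gata4* and *Gata6* (adjusted p = 0.0427 and 0.0312). *Krt19*, an epithelial keratin, was higher in KO (80.3 ± 11.7 and 117 ± 14.8 CPM; DESeq2 adjusted p = 0.0135, edgeR adjusted p = 0.176; n = 3 libraries per genotype), as were *Gata4* (log2 fold change 0.63, adjusted p = 0.000919 by DESeq2 and 0.14 by edgeR) and *Gata6* (log2 fold change 1.33, adjusted p = 3.52e-05 by DESeq2 and 0.132 by edgeR), transcription factors of endoderm and of visceral mesoderm. WT replicates 1 to 3 held 10.4, 18.7 and 11.8 CPM of *Gata6*, and the KO replicates 42.8, 29.8 and 30.4 CPM.

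Close relatives of the members were mostly low. Of 9, 5 were tested, 0 had an unadjusted p under 0.05 and the median log2 fold change was 0.73. *Tgfbi*, related to *Postn*, was at 0.513 CPM in KO replicate 2 and at 3.74 to 24.8 CPM elsewhere. *Prrx2*, named after its values were seen, gave 0.895, 1.12 and 2.14 CPM for WT replicates 1 to 3, beside 11.7, 0.57 and 4.95 CPM for the KO replicates (log2 fold change 2.06, adjusted p = 0.494 by edgeR).

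Factors that drive or partner an epithelial to mesenchymal transition were tested for all 10 genes of that list, and 1 was higher and 1 lower in KO at an unadjusted p under 0.05, with 0 called. The higher gene was *Tcf4*, named after its values were seen, with means of 56.4 ± 3.59 CPM (WT) and 71.6 ± 9.79 CPM (KO; adjusted p = 0.355 by edgeR). *Tcf3*, an E-protein partner of TWIST1, was neither of the 2, with means of 464 ± 62.3 CPM (WT) and 522 ± 31.5 CPM (KO; adjusted p = 0.724 by edgeR). The lower gene was *Id2*, an inhibitor of such partners, with means of 430 ± 44.3 and 351 ± 33.6 CPM (adjusted p = 0.4 by edgeR; n = 3 libraries per genotype). Of 23 gut and trunk mesoderm factors, 13 were tested, 1 had an unadjusted p under 0.05, 0 were called, and 12 of the 23 had 0 counts in KO replicate 2. The sum of this list, 158 to 373 CPM, was largely *Isl1*, which pancreatic and neural cells also express and which was at 214 CPM in KO replicate 2, and *Nr2f2* was at 34.7 CPM there.

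Genes most like a member were sought among tested genes at a mean of at least 5 CPM. They were ranked by the root mean square difference of their centred log2 levels (0.5 counts added) over the 6 libraries. For *Tnc* these were *Itga8*, an integrin subunit, *Ndnf* and *Tbx5* (0.251, 0.328 and 0.389), each at 0 counts in KO replicate 2. The levels of these matches there, and so their distances, rest on the 0.5 counts added, whereas *Tnc* had 17 counts. For *Pdgfra* they were *Tgfbi*, *Dkk2*, a secreted Wnt inhibitor, and *Fmod*, a matrix proteoglycan (0.392, 0.433 and 0.511). For *Pdgfrb* they were *Cnn2*, *Crispld1* and *Gli2*, a hedgehog effector (0.226, 0.299 and 0.32). The nearest genes of *Vim* were *Pvr*, *Gng2* and the proliferation gene *Mki67* (0.1, 0.111 and 0.125). *Postn* had no near match, since its nearest gene, *Grhl3*, was at 0.902.

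The endothelial list was also lowest in KO replicate 2, at 13.3 CPM, and was highest in KO replicate 1. Erythroid genes were highest in WT replicate 3. They summed to 1.03 CPM in KO replicate 2 and to 1.74 and 3.74 CPM in WT replicates 1 and 2. Most of these genes were near the floor there, so the lowest library of that list could not be told. *Hbb-y* and *Hba-a1*, globin genes, were at 5710 and 3550 CPM in WT replicate 3 and below 1 CPM in WT replicates 1 and 2 and KO replicate 2. The libraries rich in erythroid transcripts were WT replicate 3 and KO replicates 1 and 3. Among the tested members, these were also the 3 highest for *Prrx1*, *Pdgfra*, *Pdgfrb*, *Postn* and *Tnc*, but not for *Meox1* or *Vim*. Endothelial genes summed to 53.3 CPM in KO replicate 1 and to 13.3 to 22.1 CPM elsewhere, and their defining gene *Cdh5* reached at most 0.708 CPM. The endothelial genes with the highest CPM, not divided by length, were *Egfl7*, at 8.93 to 13.8 CPM, and *Tek*, at 0 CPM in KO replicate 2 and 9.73 CPM in KO replicate 1. Of the 7 endothelial and 10 erythroid genes tested, 0 had an unadjusted p under 0.05 by edgeR. The part of these transcripts in the levels of the members was not tested. Without WT replicate 3 and KO replicate 1, chosen after the data were seen, 0 of the 7 members were called by edgeR and *Meox1* changed sign to 0.37.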

How the data were processed

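Messenger RNA of 3 WT and 3 KO libraries at E10.5 was analysed, with groups and replicate numbers taken from the labels. The authors made cDNA with the SMART-seq v4 kit and libraries with Nextera XT, discarded poor-quality sequence, used STAR for alignment to GRCm39 and deposited raw counts per gene from GenomicAlignments. The gene annotation, the handling of strand and the tool versions are not given in the sources used here, and without strand, reads of overlapping genes cannot be told apart. Of the listed identifiers, 94% matched a symbol.

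The counts were tested with edgeR 4.0.16 in R 4.3.3 (filterByExpr, TMM, glmQLFit and glmQLFTest at their defaults, genotype only, Benjamini-Hochberg adjustment over 16353 genes, called under 0.05), and DESeq2 1.42.0 was the alternative, on genes with at least 1 count. Standard errors are the log2 fold change over the root of F, and intervals use the total degrees of freedom. The fits were tested on simulated counts whose spread between libraries was capped. That check therefore does not cover genes as variable as *Tnc*, *Prrx1*, *Pdgfra* and *Postn*. Libraries of a genotype differed by more than counting noise (chi-square per degree of freedom 28.0 to 45.6).

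Exon lengths and 3′UTRs are from GENCODE M21, a GRCm38 annotation. Lengths were found for 99.7% of tested genes, and no gene coordinates are given, since the builds differ. The members and lists were chosen with earlier results of these data known. All members are named. Of each other list, genes called by either tool (up to 4) or else the 2 with the highest mean CPM, not divided by length, are named, and exceptions are stated. A floor is 3 counts. Alternatives were total-count and RLE scaling, no filter, the newer edgeR estimate of the spread, a replicate block and each library left out.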

Additional observations from a re-analysis of the deposited data

How the results depend on the processing

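Under every alternative run, 0 members were called. Over all genes, 0 were called by edgeR with all 6 libraries, 699 by DESeq2 (606 higher and 93 lower) and 264 without the filter on low counts, and leaving out each library gave 0 to 217, the highest without WT replicate 2. Among the 7 tested members, *Prrx1* and *Vim* kept their direction under all 13 alternatives. The deviations of same-numbered libraries from their group means had correlations of -0.21, 0.25 and 0.08, so the numbers were not read as a pairing. WT replicate 2 and KO replicate 1, whose library names start alike, had a correlation of -0.13, and no fit paired them. With the replicate block, 0 genes were called and 2 members, *Pdgfrb* and *Vim*, had an unadjusted p under 0.05 (adjusted p = 0.428 and 0.372 by edgeR), 3 had a positive estimate, and *Pdgfra* became -0.58 and *Tnc* -0.97. On leaving out single libraries, the log2 fold change ranged from -0.44 to 0.32 for *Meox1*, -0.42 to 1.07 for *Pdgfra*, -0.16 to 1.02 for *Pdgfrb*, -0.30 to 3.70 for *Postn* and -1.11 to 1.20 for *Tnc*. Without WT replicate 3 and KO replicate 1, *Meox1* was 0.37. Without KO replicate 2, the ratio of the highest to the lowest summed member level was 4.73 in place of 8.05. The cause of these shifts was not tested. *Twist1*, *Barx1* and *Nkx3-2* had 0 to 59 counts per library, so differences among their lowest libraries could not be told.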

Other observations

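Hepatoblast genes were tested for all 8 genes with 0 at an unadjusted p under 0.05 by edgeR and a median log2 fold change of 0.0022. *Afp*, the fetal albumin relative, gave 772, 1170 and 336 CPM for WT replicates 1 to 3, beside 896, 102 and 1350 CPM for the KO replicates, so KO replicate 2 was the lowest here too. *Alb* (2.62 CPM against at least 16.3) and *Apoa2* (1.99 CPM against at least 21.4), named after their values were seen, were also lowest there, while *Ttr*, the thyroid hormone carrier, was highest there at 323 CPM. Macrophage genes summed to at most 3.53 CPM, with *Csf1r* and *Cd68* at the highest CPM, not divided by length, and 2 of 6 genes tested, 0 of them at an unadjusted p under 0.05. Neural and neural crest genes summed to 25.8 to 65.9 CPM, with *Tubb3* and *Ret* at the highest CPM, not divided by length, and 0 of 5 tested genes at an unadjusted p under 0.05, and KO replicate 2 had the highest sum. *Sox10*, the defining gene of neural crest, reached at most 0.534 CPM.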
